A study of Homo sapiens with 49 samples.

Results

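The genes of the respiratory chain and the ATP synthase were followed in 6 lines of diffuse large B-cell lymphoma, a tumour of mature B cells, that were exposed to doxorubicin. Members were the protein-coding genes whose symbols begin with NDUF and a subunit letter, with UQCR, with COX4 to COX8 and an isoform letter, or with ATP5. Of the 19775 genes with a probe set of their own on the arrays, 71 were members: 32 of complex I, 6 of complex III, 15 of complex IV and 18 of the ATP synthase. Each was read from its brightest probe set, and 41 of the 71 had more than 1. A further 10 protein-coding genes of this name pattern were not analysed here, among them the complex III genes UQCRFS1, UQCRH and UQCRHL, and 7 of the 10 are on probe sets that list several genes. NDUFA4 and NDUFA4L2 are named COXFA4 and COXFA4L2 in the gene tables used and so fall outside the pattern.

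The lines were U2932, SU-DHL-5, RIVA, OCI-Ly7, NU-DHL-1 and FARAGE, all established lines, each with 1 array per dose and time. Doxorubicin, a DNA-intercalating drug of the anthracycline class that poisons topoisomerase II, was given at a high dose of 2.5 µg/mL or a low dose of 0.00061 µg/mL. Each of the 6 lines has untreated arrays at 0, 2 and 12 h and low-dose arrays at 2 and 12 h, and U2932, RIVA and OCI-Ly7 have both kinds at 48 h as well. The high dose was profiled at 2 h in 6 lines, at 12 h in 5 (all but SU-DHL-5) and at 48 h in 2 (RIVA and U2932). The replicate is thus the line, each treated array is set against its own line without drug at that time point, and the p-values measure the spread between lines.

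The respiratory chain sits in the inner mitochondrial membrane. Complex I takes electrons from NADH, complex III passes them from ubiquinol to cytochrome c, complex IV hands them to oxygen, and the proton gradient built on the way drives the ATP synthase. Most subunits are encoded in the nucleus and imported, while a small core is encoded by mitochondrial DNA. Nuclear genes of this pathway are known for promoters with sites for the factor NRF1, for ETS-family factors such as GABPA, and for YY1.

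The promoters below are shown because each motif occurs both in a member with a higher and in a member with a lower value after the high dose, a choice made after the values were seen. They come from RefSeq (GRCh38.p14), run 5′ to 3′ along the gene's strand, hold 150 bases and end 30 bases past the annotated start, with the motif in capitals. NDUFA7 (higher at 12 h) and NDUFS4 (lower at 48 h) hold the YY1 letters AAGATGGCG just past the start, in chr19:8321346-8321495, minus strand, and chr5:53560519-53560668, plus strand.
NDUFA7: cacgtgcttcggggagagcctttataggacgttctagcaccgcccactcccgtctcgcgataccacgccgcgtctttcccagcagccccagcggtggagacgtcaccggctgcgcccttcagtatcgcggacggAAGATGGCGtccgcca
NDUFS4: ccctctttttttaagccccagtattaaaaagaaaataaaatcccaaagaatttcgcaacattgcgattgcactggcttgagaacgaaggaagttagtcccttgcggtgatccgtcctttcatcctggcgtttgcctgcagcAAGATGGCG

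ATP5ME (higher at 12 h, chr4:674247-674396, minus strand) and NDUFA8 (lower at 48 h, chr9:122159750-122159899, minus strand) hold the NRF1 letters GCGCATGCG, which in NDUFA8 overlap with a match on the other strand. The ATP5ME stretch also holds the ETS letters CCGGAAG on the opposite strand, left in lower case.
ATP5ME: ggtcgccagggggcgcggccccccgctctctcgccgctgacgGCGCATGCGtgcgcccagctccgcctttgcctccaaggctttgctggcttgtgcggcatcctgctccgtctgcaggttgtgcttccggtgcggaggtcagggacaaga
NDUFA8: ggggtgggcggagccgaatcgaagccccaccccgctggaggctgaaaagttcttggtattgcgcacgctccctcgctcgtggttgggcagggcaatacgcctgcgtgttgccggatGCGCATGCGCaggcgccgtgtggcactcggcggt

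COX6B1 (higher at 12 h, chr19:35648203-35648352, plus strand) and ATP5F1A (lower at 12 and 48 h, chr18:46098267-46098416, minus strand) hold the ETS letters CCGGAAG on the opposite strand.
COX6B1: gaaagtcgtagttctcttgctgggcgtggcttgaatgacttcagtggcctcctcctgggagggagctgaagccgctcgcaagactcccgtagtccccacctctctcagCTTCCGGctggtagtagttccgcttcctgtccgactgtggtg
ATP5F1A: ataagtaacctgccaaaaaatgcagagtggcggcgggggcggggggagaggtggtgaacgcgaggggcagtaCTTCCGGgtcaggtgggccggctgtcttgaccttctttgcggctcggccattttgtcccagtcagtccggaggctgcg

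RefSeq promoters of 300 bases, 250 before and 50 past the start, were matched for 62 of the 71 members and searched on both strands. The NRF1 letters stood in 10 of the 62 (16.1%), against 3.18% of the 15384 genes of the array with a promoter. The YY1 letters stood in 8 (12.9%, against 3.23%) and the ETS letters in 17 (27.4%, against 16.6%), while the TATA box letters TATAAA stood in 7 (11.3%, against 11.5%). At least 1 of the NRF1, YY1 and ETS motifs occurred in 30 of the 62 members (48.4%) and in 21.2% of all genes with a promoter. Of the 38 among these members that were called higher at 12 h relative to genes of like level, 5 held the NRF1 letters, 6 the YY1 letters and 12 the ETS letters. Among the other 24 the numbers were 5, 2 and 5. These are matches of letters, not measured binding.

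All levels are log2 intensities from RMA, a method that gives every array the same overall distribution, so a difference says how a gene moved against the bulk of genes on its array. The poly-A control probe sets, which read RNA added during sample preparation, were 1.59 ± 0.46 (SD, n = 5 lines) higher at 12 h of the high dose than in untreated cells and 2.89 ± 0.28 (n = 2) higher at 48 h, and the hybridization controls were 0.66 ± 0.35 and 1.45 ± 0.66 higher. Their part in the results was not tested, and fewer cells and less RNA per cell cannot be told apart in bulk RNA. Each line's difference was therefore also taken relative to the median of the 500 other genes nearest in untreated level, which no rescaling of a whole array alters. "Relative to genes of like level" means this log2 difference, given with its standard error from limma, and called means an adjusted p under 0.05. In untreated cells 6 of 6 B-cell markers lay above the median gene, against 1 of 6 T-cell, 0 of 5 myeloid, 2 of 6 fibroblast and 0 of 6 epithelial markers. At 12 h of the high dose 5 of the 6 B-cell markers were called lower (median -0.90), while 3 T-cell, 2 myeloid and 3 epithelial markers were called higher from dim levels, beside 18.2% of all genes. On the scale relative to genes of like level 0 T-cell, 1 myeloid and 0 epithelial markers were called higher and 4 B-cell markers lower. Their part in the members' values was not tested.

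In untreated cells 65 of the 71 members were read from probe sets above the median gene, whose level was 5.78. The 6 below it were COX6A2 and COX7A1, isoforms known from muscle, COX6B2, COX7B2 and COX8C, known from testis, and ATP5MF, a small membrane subunit of the ATP synthase. Single subunits set the lines apart. NDUFA3, an accessory subunit in the membrane arm of complex I, had a level of 10.08 ± 0.07 in OCI-Ly7 and 12.02 ± 0.14 in RIVA (mean ± SD of the arrays at 0, 2 and 12 h, n = 3), with the other lines between 10.73 and 11.12. COX7A2, the common isoform of a small complex IV subunit, stood at 10.80 ± 0.11 in SU-DHL-5 and between 11.99 and 12.47 elsewhere. ATP5MK, a small membrane subunit of the ATP synthase, stood at 11.85 ± 0.07 in U2932 and between 12.72 and 13.31 elsewhere. Over the members the median SD between lines was 0.28, the same as over all genes (0.28). Within a line it was 0.07, against 0.12 over all genes. By complex the median SD between lines was 0.36 for complex III, 0.30 for complex I, 0.19 for the ATP synthase and 0.16 for complex IV. The lines were not tested against each other.

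At the low dose no member was called at 2, 12 or 48 h, and the background was 0% of all genes in each of these comparisons (limma). At an unadjusted p under 0.05 there were 0 members at 2 h, 7 at 12 h (9.86% of members) and 5 at 48 h (7.04%), all of them higher, beside 4.09%, 7.49% and 7.41% of all genes in either direction and 1.8%, 4.94% and 4.33% higher. Differences ran from -0.08 (ATP5MF) to 0.08 (COX6A2) at 2 h, from -0.06 (NDUFA5) to 0.13 (COX6B2) at 12 h and from -0.10 (COX7A1) to 0.13 (NDUFB10) at 48 h. Scaled to the poly-A controls, which lay at -0.12 ± 0.10 at 12 h of the low dose, 46 members were called higher at that time. Scaling to controls moves every gene of an array by the same amount. The share of all genes called on such scales, or in other alternative fits unless printed, is not given here or below. Such counts therefore do not single out the members. In untreated culture no member was called between 0 and 2 h, where 0.172% of all genes were called higher and 0.45% lower, or between 0 and 12 h, where 0.0152% were called higher. At an unadjusted p under 0.05 there were 6 members at 2 h and 7 at 12 h (limma), of which 4 and 6 were lower than at 0 h, beside 14.3% and 10.4% of all genes, so that the members' shares of 8.45% and 9.86% lay below the background.

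By 48 h the untreated cultures had parted. The median member lay at -0.48 relative to its 0 h level in OCI-Ly7 (65 of 71 below 0) and at -0.36 in RIVA (66 of 71 below 0), while in U2932 it lay at 0.01 (32 of 71 below 0). Medians over all genes were 0.04, -0.00 and -0.00. The lowest member in OCI-Ly7 (-1.48) and in RIVA (-1.32) was ATP5MC1, a gene of the c subunit that forms the rotor ring of the ATP synthase, which stood at -0.29 in U2932. These are single arrays with no test, and those of RIVA and U2932 are the controls of the high dose at 48 h.

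At 2 h of the high dose the members had moved slightly, and those called were all higher. Against untreated cells 21 members were called higher and none lower, beside 4.03% and 6.38% of all genes. Scaled to the poly-A controls 0 were higher and 9 lower, scaled to the hybridization controls 1 was higher, with arrays centred on the median gene 8, without a variance trend 0, and without FARAGE, SU-DHL-5 or U2932 11, 11 and 10. Relative to genes of like level 13 were called higher and none lower, beside 4.11% and 6.36%. Of these 13, 10 belonged to complex I and 3 to the ATP synthase. The median member lay 0.06 above genes of like level, and no member reached a 2-fold difference in any line. Without NU-DHL-1 10 were called, without OCI-Ly7 or RIVA 7 each, without FARAGE, SU-DHL-5 or U2932 6 each, and with a variance model that has no trend none.

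NDUFA6, a complex I subunit of the LYR family, shows the size of the shift. Its level in untreated and in treated cells was 11.58 and 11.90 in FARAGE, 11.02 and 11.10 in NU-DHL-1, 11.34 and 11.43 in OCI-Ly7, 11.60 and 11.67 in RIVA, 11.03 and 11.31 in SU-DHL-5 and 11.35 and 11.55 in U2932. It was higher in 6 of 6 lines, and the groups overlapped because the lines differ more than the treatment does. It was 0.15 ± 0.03 above genes of like level (adjusted p = 0.012). NDUFB9, another complex I subunit of that family, was 0.12 ± 0.03 higher (adjusted p = 0.0106). The other members with the largest called differences were NDUFA7 (0.15 ± 0.04), NDUFB10 (0.14 ± 0.03), NDUFS7 (0.13 ± 0.03), NDUFA2 (0.12 ± 0.03), NDUFB5 (0.12 ± 0.03) and ATP5IF1 (0.11 ± 0.03), the inhibitor that stops the ATP synthase from running backwards. NDUFA7 was higher in 5 of 6 lines and the others in 6 of 6.

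By 12 h of the high dose most subunits stood above genes of like level. Of the 71 members 42 (59.2%) were called higher relative to such genes and 2 lower, beside 7.76% and 9.63% of all genes. Those called higher were 18 of 32 in complex I, all 6 in complex III, 9 of 15 in complex IV and 9 of 18 in the ATP synthase. The median member lay 0.51 above genes of like level. By complex the medians over members were 0.60 for complex I, 0.68 for complex III, 0.35 for complex IV and 0.38 for the ATP synthase. The 2 called lower were NDUFV2 of complex I and ATP5F1A of the ATP synthase. Without OCI-Ly7 25 were called higher, and without RIVA or U2932 27 each, with none called lower in these 3 cases.

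Against the untreated array itself 36 members were called higher and 3 lower, beside 18.2% and 14.7% of all genes, whereas scaled to the poly-A controls 0 were higher and 69 lower, and scaled to the hybridization controls 0 and 12. Without OCI-Ly7, RIVA or U2932 the 36 became 15, 12 and 16. Genes near the levels of the 65 members above the median gene had a median difference of -0.16 ± 0.09 (SD, n = 5 lines) on the deposited scale, from -0.56 to 0.01 by member, and this is what the comparison with genes of like level takes off. For the 6 members below the median gene that comparison lowers the value, as for COX6A2 from 0.63 to 0.21. In 12 members every treated line lay above every untreated one, in 1 every treated line lay below, beside 8.79% and 5.38% of all genes, and in the others the groups overlapped.

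**Figure D1:**
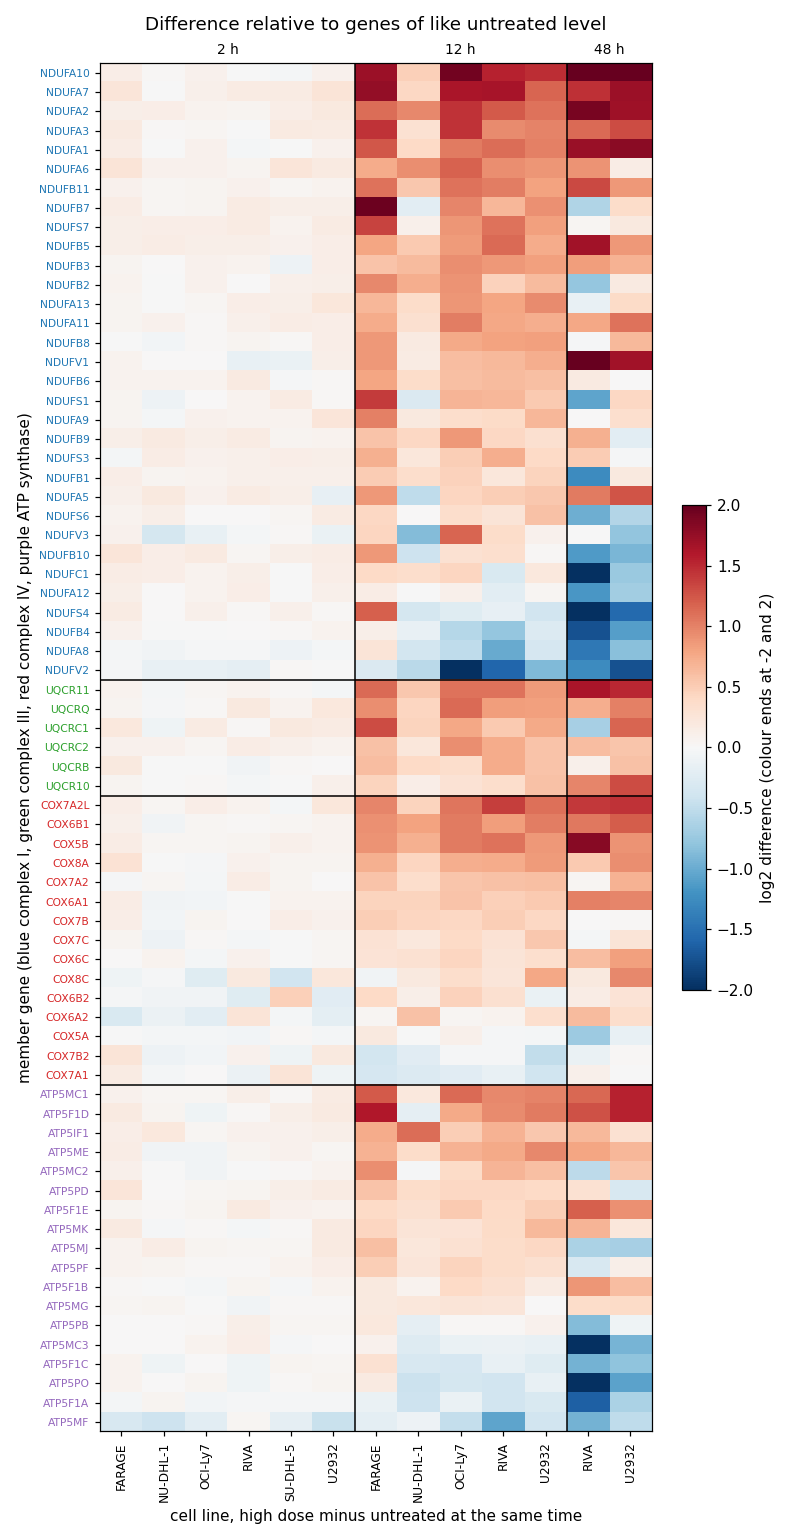
Log2 difference of each of the 71 members relative to genes of like untreated level (red higher, blue lower, colour ends at -2 and 2) by line at 2, 12 and 48 h of the high dose, ordered within each complex by the mean at 12 h. At 12 h most rows are red, palest in NU-DHL-1, and at 48 h NDUFV2, NDUFS4, NDUFA8, NDUFB4, ATP5MC3 and ATP5PO are blue in both lines.

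In complex I the largest rises were in accessory subunits, which make up most of its members. NDUFA10, of the membrane arm, had a level in untreated and in treated cells of 10.39 and 11.61 in FARAGE, 10.57 and 10.72 in NU-DHL-1, 9.73 and 11.32 in OCI-Ly7, 9.84 and 10.98 in RIVA and 9.42 and 10.58 in U2932. Every treated line lay above every untreated one, with the smallest step in NU-DHL-1. NDUFA10 was 1.43 ± 0.23 above genes of like level (adjusted p = 0.00694). NDUFA7, of the matrix arm, had levels of 9.74 and 11.29 in FARAGE, 10.38 and 10.46 in NU-DHL-1, 11.19 and 12.47 in OCI-Ly7, 10.24 and 11.55 in RIVA and 11.10 and 12.05 in U2932. It barely moved in NU-DHL-1, the groups overlapped, and it was 1.33 ± 0.21 higher than genes of like level (adjusted p = 0.00728).

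NDUFA2, a matrix-arm subunit with a thioredoxin-like fold, rose in 5 of 5 lines. Its levels were 11.57 and 12.63 in FARAGE, 11.52 and 12.14 in NU-DHL-1, 11.51 and 12.76 in OCI-Ly7, 11.84 and 12.85 in RIVA and 11.89 and 12.81 in U2932. All treated lines lay above all untreated ones, and relative to genes of like level the difference was 1.16 ± 0.10 (adjusted p = 0.00214). NDUFA3 was 1.03 ± 0.18 higher (adjusted p = 0.01) and the X-linked NDUFA1 0.96 ± 0.13 higher (adjusted p = 0.00452), both in the membrane arm. NDUFB1, the brightest complex I probe set, was 0.40 ± 0.08 higher (adjusted p = 0.0153).

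The nuclear core subunits of complex I did not move as a block. NDUFV1, which binds NADH and the flavin, was 0.61 ± 0.14 above genes of like level (adjusted p = 0.0263). NDUFS7, which holds the iron-sulfur cluster next to ubiquinone, was 0.85 ± 0.20 higher (adjusted p = 0.0265). NDUFS1 (0.60 ± 0.24, adjusted p = 0.134) and NDUFS3 (0.51 ± 0.15, adjusted p = 0.0567) did not pass the test. NDUFV2, the iron-sulfur partner of NDUFV1 at the tip of the matrix arm, fell. Its levels were 11.84 and 11.50 in FARAGE, 11.29 and 10.41 in NU-DHL-1, 11.30 and 9.03 in OCI-Ly7, 11.96 and 10.17 in RIVA and 11.93 and 10.88 in U2932. It was lower in 5 of 5 lines, least in FARAGE and most in OCI-Ly7, with -1.08 ± 0.27, adjusted p = 0.0299, relative to genes of like level. NDUFA8, a twin-cysteine subunit on the intermembrane-space side, was called lower against untreated cells, but its difference from genes of like level was -0.39 ± 0.21, adjusted p = 0.258.

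All 6 complex III members with a value were called higher relative to genes of like level, and 3 of them against untreated cells. UQCR11, its smallest subunit, had levels of 11.11 and 12.18 in FARAGE, 12.12 and 12.32 in NU-DHL-1, 11.46 and 12.36 in OCI-Ly7, 11.82 and 12.70 in RIVA and 11.95 and 12.65 in U2932. Every treated line lay above every untreated one, and relative to genes of like level UQCR11 was 0.94 ± 0.12 higher (adjusted p = 0.0035). UQCRQ, an accessory subunit, was 0.83 ± 0.11 higher. The core proteins UQCRC1 and UQCRC2, relatives of a processing peptidase, were 0.76 ± 0.18 and 0.61 ± 0.13 higher. UQCRB, the brightest complex III probe set, was 0.54 ± 0.08 higher (adjusted p = 0.00638), and UQCR10 was 0.36 ± 0.09 higher (adjusted p = 0.0309). All 6 were above genes of like level in 5 of 5 lines. CYC1, cytochrome c1 of the same complex and outside the name pattern, lay at 0.21 ± 0.14, adjusted p = 0.354.

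In complex IV the 9 members called higher were all among the 10 bright probe sets. COX5B, a zinc-binding subunit, had levels of 11.82 and 12.67 in FARAGE, 12.00 and 12.41 in NU-DHL-1, 11.88 and 12.76 in OCI-Ly7, 11.69 and 12.60 in RIVA and 11.85 and 12.59 in U2932. Every treated line lay above every untreated one, and COX5B was 0.92 ± 0.09 above genes of like level (adjusted p = 0.00238). COX6B1, which sits on the intermembrane-space side of the dimer, was 0.92 ± 0.09 higher (adjusted p = 0.00237). COX7A2L, a relative of COX7A2 known for joining complexes III and IV, was 1.00 ± 0.15 higher (adjusted p = 0.00577). COX7C, the brightest complex IV probe set, was 0.34 ± 0.07 higher (adjusted p = 0.0124), and COX5A, the tenth bright one, lay at 0.05 ± 0.07, adjusted p = 0.71.

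The common isoforms of complex IV were called relative to genes of like level and their tissue-restricted partners were not, whereas against untreated cells COX6A2 (0.63 ± 0.14), COX6B2 (0.61 ± 0.17) and COX8C (0.44 ± 0.12) were called higher as well (limma). COX6A1 was 0.49 ± 0.06 higher (adjusted p = 0.00362) and COX6A2 lay at 0.21 ± 0.14, adjusted p = 0.35. COX7A2 was 0.53 ± 0.08 higher (adjusted p = 0.00588) and COX7A1 lay at -0.28 ± 0.11, adjusted p = 0.121. COX7B was 0.45 ± 0.07 higher (adjusted p = 0.00588) and COX7B2 lay at -0.23 ± 0.11, adjusted p = 0.212. COX8A was 0.69 ± 0.09 higher (adjusted p = 0.00414) and COX8C lay at 0.30 ± 0.13, adjusted p = 0.149. COX6B2, the partner of COX6B1, lay at 0.23 ± 0.14, adjusted p = 0.285. The partners are read below the median gene, and the members of a pair were not tested against each other.

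The ATP synthase was divided. ATP5F1A, the alpha subunit of the catalytic head, had levels of 13.60 and 13.55 in FARAGE, 13.22 and 12.67 in NU-DHL-1, 12.83 and 12.71 in OCI-Ly7, 14.10 and 13.76 in RIVA and 14.03 and 13.77 in U2932. It was lower in 5 of 5 lines and lay at -0.27 ± 0.07, adjusted p = 0.0284, relative to genes of like level. With the mean of its probe sets, each gene then being set against others of like mean level, the value was 0.37; its second probe set, at a level of 4.68, had a difference of 0.32 from untreated cells. The beta subunit ATP5F1B lay at 0.23 ± 0.08, adjusted p = 0.0828. The epsilon subunit ATP5F1E was 0.43 ± 0.06 higher (adjusted p = 0.00555), ATP5ME, of the membrane part, 0.70 ± 0.11 higher (adjusted p = 0.00648), and the inhibitor ATP5IF1 0.72 ± 0.16 higher (adjusted p = 0.0191).

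ATP5MC1, ATP5MC2 and ATP5MC3 encode the same mature c subunit, and their values parted at 12 h. ATP5MC1 had levels of 10.53 and 11.61 in FARAGE, 10.72 and 10.60 in NU-DHL-1, 10.89 and 11.70 in OCI-Ly7, 10.77 and 11.39 in RIVA and 10.65 and 11.47 in U2932. It was higher in 4 of 5 lines and lower in NU-DHL-1, and relative to genes of like level it was 0.90 ± 0.18 higher (adjusted p = 0.0132). ATP5MC2 had levels of 11.21 and 12.08 in FARAGE, 12.68 and 12.31 in NU-DHL-1, 11.65 and 11.82 in OCI-Ly7, 11.71 and 12.18 in RIVA and 11.46 and 11.90 in U2932, and it was 0.51 ± 0.15 higher (adjusted p = 0.0484). ATP5MC3 had levels of 13.00 and 13.15 in FARAGE, 12.84 and 12.44 in NU-DHL-1, 13.12 and 13.01 in OCI-Ly7, 12.85 and 12.76 in RIVA and 13.05 and 12.94 in U2932. It lay at -0.12 ± 0.07, adjusted p = 0.329, relative to genes of like level. In each of the 5 lines the value of ATP5MC1 relative to genes of like level exceeded that of ATP5MC3, from 0.21 against -0.26 in NU-DHL-1 to 1.13 against -0.13 in OCI-Ly7, but the difference between the genes was not tested. Another bright probe set of ATP5MC3 gave a difference of -0.11 from untreated cells at 12 h, as did the chosen one. A dimmer probe set of ATP5MC3, at a level of 7.07 and so above the median gene, gave -1.40.

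**Figure D2:**
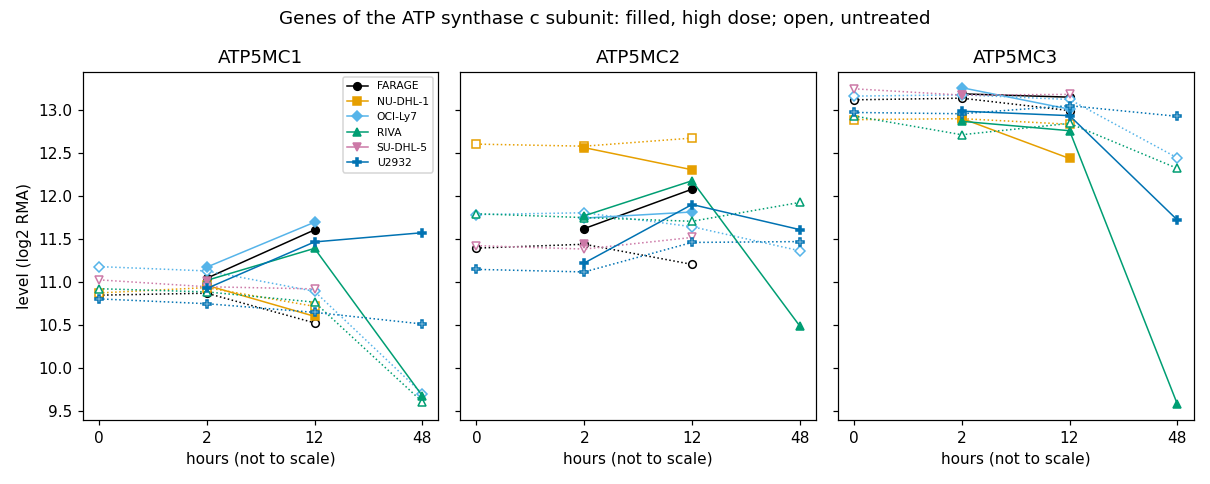
Level (log2 RMA) of ATP5MC1, ATP5MC2 and ATP5MC3 against hours (not to scale), with 1 marker and colour per line, filled with a solid line for the high dose and open with a dotted line for untreated cells. ATP5MC1 is above its untreated level at 12 h in 4 of 5 lines, ATP5MC3 falls in RIVA and U2932 by 48 h, and untreated ATP5MC1 also falls by 48 h in OCI-Ly7 and RIVA.

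The lines shared the direction at 12 h and differed in size. Relative to genes of like level the complex I median was 0.83 in FARAGE, 0.80 in OCI-Ly7, 0.66 in RIVA, 0.65 in U2932 and 0.27 in NU-DHL-1. The complex III median ran from 0.42 in NU-DHL-1 to 0.85 in OCI-Ly7, and that of the ATP synthase from 0.14 in NU-DHL-1 to 0.41 in FARAGE. For complex IV, NU-DHL-1 lay at 0.36, above RIVA at 0.32. Against untreated cells the complex I median in NU-DHL-1 was -0.08 and that of the ATP synthase -0.03, and in the other 4 lines all 4 medians were above 0 on the deposited scale. The SD over members of this difference was 0.38 to 0.55 by line, against 0.85 to 1.16 over all genes.

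**Figure D3:**
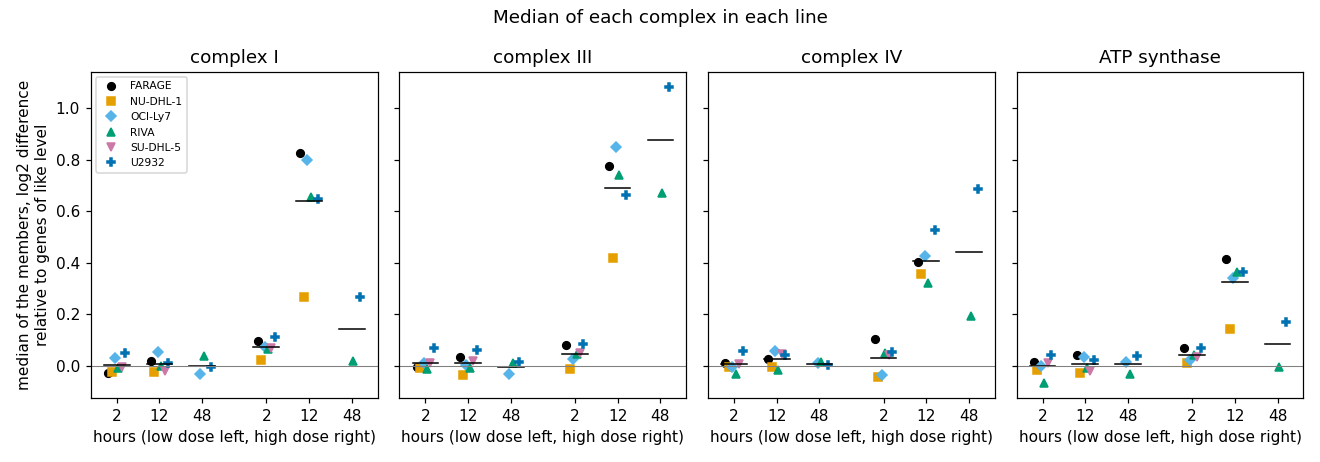
Median over the members of each complex of the log2 difference relative to genes of like level, 1 marker per line and a black bar for the mean over lines, at 2, 12 and 48 h of the low dose (left) and the high dose (right). Low-dose medians lie from -0.07 to 0.07, and at 12 h of the high dose every line is above 0 in all 4 panels.

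The dose difference was tested within lines. At 2 h 16 members were higher at the high than at the low dose and none lower, beside 4.22% and 5.99% of all genes, and 12 of the 16 were of complex I. At 12 h 35 were higher and 2 lower, beside 14.8% and 14.3%, with 14 and 2 in complex I, 3 and 0 in complex III, 10 and 0 in complex IV and 8 and 0 in the ATP synthase. Scaled to the poly-A controls none was higher at either time (0), while 6 were lower at 2 h and 71 at 12 h. Leaving out FARAGE, RIVA or SU-DHL-5 gave 5, 7 and 7 called higher at 2 h in place of 16, and leaving out FARAGE, OCI-Ly7, RIVA or U2932 gave 23, 13, 10 and 15 at 12 h in place of 35. These comparisons share the high-dose arrays with those above.

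The change of the high-dose difference from 2 to 12 h was tested in the 5 lines with both times. It was positive in 27 called members and negative in 3, beside 9.29% and 12.6% of all genes, but 0 and 60 when scaled to the poly-A controls. The 27 were 11 of complex I, 3 of complex III, 10 of complex IV and 3 of the ATP synthase. On the deposited scale the largest were NDUFA10 (0.98 ± 0.22, adjusted p = 0.0162), NDUFA7 (0.87 ± 0.20, adjusted p = 0.0178), NDUFA2 (0.83 ± 0.13, adjusted p = 0.00458) and NDUFA3 (0.74 ± 0.20, adjusted p = 0.0279). The 3 negative ones were all of complex I: NDUFV2 (-1.20 ± 0.24, adjusted p = 0.0111), NDUFA8 (-0.73 ± 0.21, adjusted p = 0.0378) and NDUFB4 (-0.45 ± 0.14, adjusted p = 0.0458), an accessory subunit of the membrane arm. Without OCI-Ly7 the 27 became 5, without RIVA or U2932 6 each, without FARAGE 15 and without NU-DHL-1 41.

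At 48 h of the high dose, measured in RIVA and U2932 alone, the subunits were spread widely. Against untreated cells 11 members were called lower and 3 higher, beside 8.28% and 5.66% of all genes, and 70 lower and 0 higher when scaled to the poly-A controls. Of the 11, 7 were of complex I and 4 of the ATP synthase. Relative to genes of like level no member and 0% of all genes were called, while at an unadjusted p under 0.05 there were 23 members higher and 12 lower (limma), beside 12.2% and 11% of all genes. When only genes above the median level were tested, 13 members were called higher and 6 lower relative to genes of like level, beside 7.69% and 7.02% of the genes tested. With 2 lines the fit has 1 residual degree of freedom and its variance is mostly borrowed from other genes; without the trend in that variance none was called.

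NDUFS4, an accessory subunit known to be needed for a stable complex I, fell most, from 9.28 to 5.82 in RIVA and from 9.50 to 7.48 in U2932 (-2.74 ± 0.57, adjusted p = 0.0107). NDUFV2 fell from 11.25 to 9.02 in RIVA and from 11.86 to 9.70 in U2932 (-2.19 ± 0.44, adjusted p = 0.00927). ATP5PO, the stalk subunit OSCP that ties the catalytic head to the stator, fell from 11.99 to 9.12 in RIVA and from 12.26 to 10.88 in U2932 (-2.12 ± 0.45, adjusted p = 0.0112). The steps were similar in both lines for NDUFV2 and deeper in RIVA for NDUFS4 and ATP5PO.

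NDUFC1, a small membrane-arm subunit of complex I, fell from 11.45 to 8.38 in RIVA and from 12.10 to 10.93 in U2932 (-2.11 ± 0.50, adjusted p = 0.0174). ATP5MC3 fell from 12.32 to 9.58 in RIVA and from 12.93 to 11.72 in U2932 (-1.97 ± 0.42, adjusted p = 0.011), and its second bright probe set gave -1.99. In both genes the step was deeper in RIVA, by the chosen probe sets. The dimmer probe set of ATP5MC3, at a level of 7.07, gave only -0.32 at 48 h. NDUFA8, NDUFB4, NDUFB10, NDUFA12, ATP5F1C, the gamma subunit, and ATP5F1A made up the rest, with differences from -1.90 to -1.40.

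The 3 members called higher at 48 h were NDUFA1, NDUFA2 and COX8C, and all 3 turn negative when scaled to either set of controls. NDUFA1 went from 11.92 to 12.78 in RIVA and from 11.93 to 13.31 in U2932 (1.12 ± 0.30, adjusted p = 0.0297). NDUFA2 went from 11.52 to 12.47 in RIVA and from 11.75 to 13.04 in U2932 (1.12 ± 0.32, adjusted p = 0.0354). COX8C lies near the floor of the scale, with untreated levels of 2.54 in RIVA and 2.42 in U2932 (0.78 ± 0.22, adjusted p = 0.0331). NDUFV1, the partner of NDUFV2, did not pass the test, with values from 10.44 to 11.47 in RIVA and from 10.39 to 11.59 in U2932 (1.11 ± 0.41, adjusted p = 0.0868). ATP5MC1 had a difference of 0.07 in RIVA and 1.06 in U2932 (adjusted p = 0.439), where its untreated level in RIVA had itself dropped by 1.32 since 0 h.

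By complex, the median differences from untreated cells at 48 h were -0.89 in RIVA and -0.20 in U2932 for complex I, -0.26 and 0.63 for complex III, 0.28 and 0.52 for complex IV, and -0.33 and -0.16 for the ATP synthase. Genes near the levels of the 65 members above the median gene had median differences of -0.91 in RIVA and -0.41 in U2932. Relative to them the medians were 0.02 and 0.27 for complex I, 0.67 and 1.08 for complex III, 0.19 and 0.69 for complex IV, and -0.00 and 0.17 for the ATP synthase. Of the 71 members 33 were below their untreated level in both lines, 25 above it in both, 13 below it in RIVA only and none in U2932 only. Over all genes 5691 of 19775 were below it in both. Relative to genes of like level 43 of the 71 lay above 0 in RIVA and 50 in U2932, where the median over all genes was 0.00 in each line. Values were lower in RIVA than in U2932 for 58 of 71 (81.7%), against 47.2% of all genes. In both lines 11 members lay at -1 or below (15.5%), against 9.70% of all genes. Neither of these shares was counted among genes of like level, whose median difference was itself lower in RIVA, as given above.

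**Figure D4:**
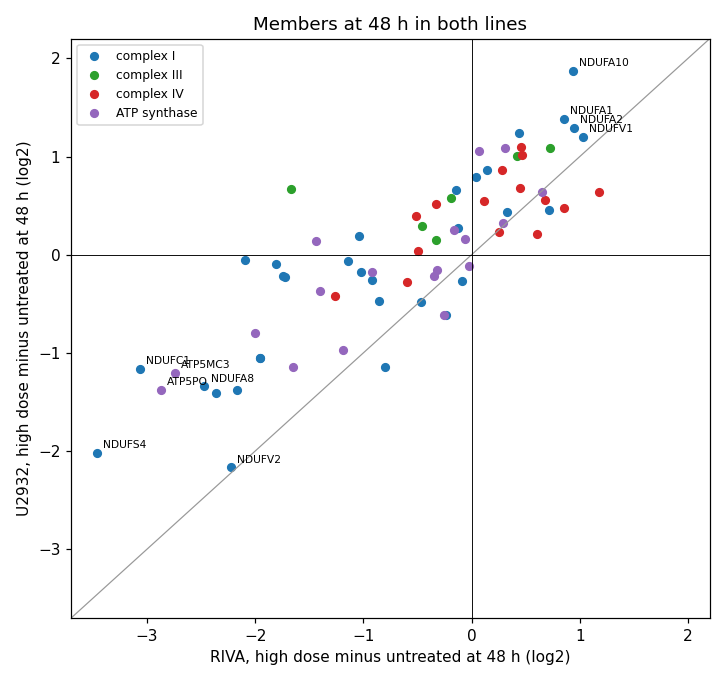
Log2 difference of each member at 48 h of the high dose in RIVA (horizontal) and U2932 (vertical), coloured by complex, with a grey line of equality. Of the 71 points 58 lie above the line of equality, NDUFS4, NDUFV2 and ATP5PO lie far below 0 in both lines, and NDUFA10, NDUFA1, NDUFA2 and NDUFV1 lie above 0 in both on the deposited scale.

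**Figure D5:**
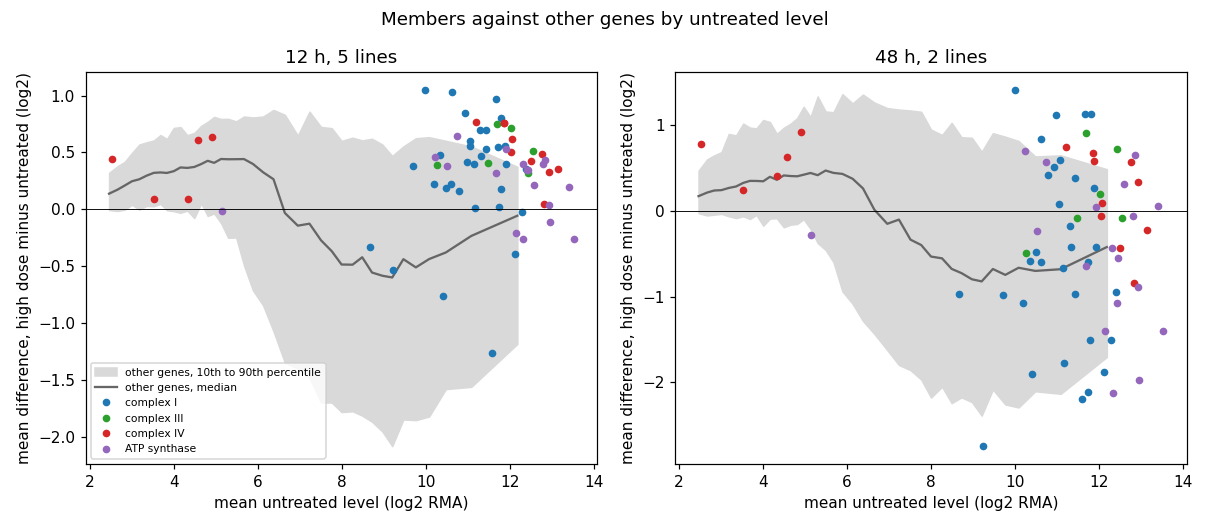
Mean log2 difference (high dose minus untreated) against mean untreated level (log2 RMA) at 12 h (left, 5 lines) and 48 h (right, 2 lines), with members coloured by complex and, for the other genes in bins of level, the median as a grey line and the 10th to 90th percentile as a grey band. At 12 h most bright members lie above the grey line, and at 48 h the members run from -2.74 (NDUFS4) to 1.41 (NDUFA10) on the deposited scale.

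Members are short genes, with a median span of 9.24 kb against 24.7 kb for all genes. Across the 71 members the Spearman correlation of span with the difference from untreated cells was -0.09 at 2 h, -0.35 at 12 h and -0.37 at 48 h, and across 19735 genes it was -0.19, -0.21 and -0.25. This describes genes that share their arrays. The 24 shortest members, up to 5.62 kb, had a median difference of 0.51 at 12 h and 0.46 at 48 h, and the 23 longest, from 12.8 kb, 0.18 and -0.66, on the deposited scale.

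Second probe sets check the choice of the brightest. For the 41 members with more than 1, the other 64 probe sets had the same sign of the 12 h difference as the chosen one in 51 cases. Of the 41 such probe sets above the median gene, 35 had the same sign, 30 lay within 0.5 and the median gap was 0.14. The direction differed in 6 of the 41. UQCR11 had 0.75 by the chosen probe set and -0.71 by one at a level of 7.63, and NDUFB8 had 0.47 and, by one at a level of 6.98, -1.13. ATP5F1E had 0.43 and, by one at a level of 5.89, -1.11, and COX7B had 0.42 and, by one at a level of 5.96, -0.44. For NDUFS1 the values were 0.22 and -0.11, and for ATP5IF1 0.38 and -0.0057.

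The mitochondrially encoded subunits had a lower median difference than the nuclear ones at 12 h in 4 of 5 lines, a gap that was not tested. Of the 7 on the array none was called against untreated cells. Their differences were 0.10 ± 0.05 for COX1, -0.01 ± 0.05 for COX2, -0.06 ± 0.07 for ATP6, 0.14 ± 0.06 for ND4 and -0.02 ± 0.11 for ND2, at untreated levels of 13.6 to 14.4 that lie near the top of the scale. The median over the nuclear members exceeded that over the 7 by 0.60 in FARAGE, 0.55 in U2932, 0.27 in OCI-Ly7 and 0.14 in RIVA, and the gap was -0.02 in NU-DHL-1. At 48 h it was -0.69 in RIVA and 0.42 in U2932. Whether the top of the scale limited these values was not tested. ND6 and COX3 are read at lower levels, with differences of 0.07 ± 0.26 and 0.41 ± 0.22 from untreated cells. COX3, at a level of 9.30, was 0.90 ± 0.25 above genes of like level (adjusted p = 0.0432), and ND6 was lower at 2 h (-0.46 ± 0.07, adjusted p = 0.00135).

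Other genes of mitochondrial energy supply were counted from lists, relative to genes of like level at 12 h, where 7.76% of all genes were called higher and 9.63% lower. Of 19 genes of the citric acid cycle and pyruvate entry 9 were higher and none lower (median 0.61), with DLST, of the oxoglutarate dehydrogenase complex, at 1.25 ± 0.18 and MPC2, of the pyruvate carrier, at 0.76 ± 0.14. Of 9 genes of a list of complex II, electron carriers and chain genes outside the name pattern, CYC1 and COX4I1 among them, 5 were higher and 1 lower (median 0.41), with SDHC, a membrane anchor of complex II, at 1.21 ± 0.19 and DHODH, the pyrimidine enzyme that feeds electrons to ubiquinone, at -1.56 ± 0.32. COX4I1, which that list holds, and COXFA4, both complex IV genes, were 0.26 ± 0.06 and 0.64 ± 0.09 higher, both called, and COXFA4L2 lay at 0.26 ± 0.14, adjusted p = 0.259.

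Among assembly factors and mitochondrial ribosomal proteins, genes were called in both directions. Of 16 complex I assembly factors 3 were higher and 3 lower (median 0.17), with NDUFAF6 at -2.21 ± 0.27 and NDUFAF5 at -1.37 ± 0.25. Of 34 assembly factors of complexes III, IV and V 8 were higher and 6 lower (median 0.30), with the complex IV factors PET117 at -3.47 ± 0.35 and PET100 at 1.16 ± 0.14. Of 75 mitochondrial ribosomal proteins 11 were higher and 15 lower (median -0.13), with MRPL33 at 1.37 ± 0.15 and MRPL15 at -1.24 ± 0.16. Of 23 import genes none was higher and 3 were lower (median -0.10), with the receptor TOMM20 at -1.47 ± 0.24 and the chaperone TIMM9 at -1.18 ± 0.30. Of 19 glycolysis genes 4 were higher and 2 lower (median 0.27), with pyruvate kinase PKM at 1.77 ± 0.19 and lactate dehydrogenase LDHA at -1.06 ± 0.15. The 2 genes named from each list are those with its smallest adjusted p. The difference between these lists and the members was not tested.

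Of 20 regulators of mitochondrial genes 3 were higher and 6 lower at 12 h (median -0.41). NRF1, the factor whose letters stand in 10 of the 62 promoters, lay at -1.72 ± 0.23, adjusted p = 0.00418, and had fallen at 2 h (-0.66 ± 0.06, adjusted p = 7.27e-05). TFB1M, which methylates mitochondrial ribosomal RNA, lay at -1.46 ± 0.23. Chosen after their values were seen, the coactivator PPRC1 lay at -1.59 ± 0.26, the ETS-family factor GABPA at 1.09 ± 0.21 and TFAM, which packages mitochondrial DNA, at 1.07 ± 0.20, all called, while YY1 lay at -0.54 ± 0.21, adjusted p = 0.125. At 48 h NRF1 had a difference of -2.48 ± 0.55, adjusted p = 0.0138, from untreated cells.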

How the data were processed

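RNA of 6 lymphoma lines was measured on 49 Affymetrix arrays. The deposited values are log2 expression per probe set, made by the authors with the affy package and RMA in R 3.0.2 per the submitters' processing notes, and range from 1.71 to 14.8. Of 54675 probe sets, 41097 list 1 gene, 1801 several and 11777 none in the platform annotation, and symbols were updated through RefSeq for 41043. Where a gene had several single-gene probe sets, the one with the largest average signal stood for it. Mitochondrially encoded genes were taken by chromosome, since their symbols carry no prefix in the table.

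Paired differences (each line's treated minus its untreated array at that time, line as a block) were fitted with limma 3.58.1 in R 4.3.3 with a variance trend. P-values were adjusted by Benjamini-Hochberg over 19775 genes and called under 0.05. For genes of like level, the median difference of the 500 nearest other genes by untreated level (250 on each side) was subtracted in each line before the fit, for every gene. The pairing comes from the line named in the labels, each line having 1 array per dose and time. The number of arrays limits the precision. Tables and figures were made with Python 3.11.15, pandas 2.3.3, numpy 2.4.6, scipy 1.17.1 and matplotlib 3.10.9, and the fits were tested on simulated data.

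The members and lists were chosen with earlier results of these data known. Named members were the 8 largest called rises and falls at 2 and 12 h and the 4 largest at 48 h and for the change with time, the brightest of each complex, and isoform families and complex I core subunits in full; of other lists, the 2 genes with the smallest adjusted p. Further genes were named after their values were seen. Alternatives were median centring, scaling to 27 poly-A or 18 hybridization control probe sets, no variance trend, only genes above the median level, the mean of a gene's probe sets, no replicate block, a joint fit of all arrays, windows of 100 genes, and leaving out each line. SU-DHL-5 has no high-dose array at 12 h.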

Additional observations from a re-analysis of the deposited data

Results flagged for a closer look

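In 68 sets of 5 or 6 lines tested for a line far from the others, 9 had one (13.2%), where chance gives about 1 in 20 for independent sets. These sets share their arrays, and complex medians include members tested singly. The share found therefore cannot be weighed against 1 in 20. At 12 h of the high dose NU-DHL-1 stood apart below the other lines in 4 of the 9, relative to genes of like level. The ATP synthase median was 0.14 in NU-DHL-1 and 0.34 to 0.41 in the other 4 lines. NDUFA1 was 0.40 in NU-DHL-1 and 1.01 to 1.24 in the others. ATP5MC1 was 0.21 in NU-DHL-1 and 0.96 to 1.22 in the others. COX7A2 was 0.36 in NU-DHL-1 and 0.56 to 0.60 in the others.

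At 2 h of the high dose 5 members had a line apart, all with small values. UQCRB was 0.19 in FARAGE and -0.07 to 0.02 in the other lines. COX8A was 0.28 in FARAGE and -0.02 to 0.09 in the others. NDUFS3 was -0.034 in FARAGE and 0.08 to 0.14 in the others. ATP5F1A was 0.061 in NU-DHL-1 and -0.05 to -0.02 in the others. COX6B2, which is read below the median gene, was 0.48 in SU-DHL-5 and -0.24 to -0.02 in the others.

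The high-dose difference itself changed between 2 and 12 h: its change was positive in 27 members and negative in 3 (limma on the change within lines, adjusted p under 0.05), on the deposited scale. When scaled to the poly-A controls the change was positive in 0 and negative in 60.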

How the results depend on the processing

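Of 326 recomputed counts of members 221 stayed within 1.5 times the value reported, and of 92 recomputed complex medians 74 did not move by more than the spread between lines. Of 671 recomputed values of named members 561 kept their side of the threshold, 98 lost the call and 5 gained it. Another 7 changed sign and were called before or after the change of setting. Changes of sign between values not called in either fit are counted among the 561. The cause of the other changes was not tested. At 48 h no line was left out, since 1 line leaves no residual degree of freedom. The shares of all genes called under the alternatives are not given in this section, so its counts do not single out the members.

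Scaling to controls moves every gene of an array alike, and the shares of all genes called on these scales are not given. Scaled to the poly-A controls, no member was called higher against untreated cells at 2, 12 or 48 h (0 each), and 9, 69 and 70 were lower. On that scale the low dose gave 46 higher at 12 h, untreated culture 1 higher at 12 h, the dose difference 0 higher at both times with 6 (2 h) and 71 (12 h) lower, and the change with time 0 and 60. Scaled to the hybridization controls, 1 was higher at 2 h and 0 at the later times, with 12 lower at 12 h and 17 at 48 h. The dose difference then gave 5 higher at 2 h, none (0) at 12 h and 13 lower at 12 h, and the change with time 0 and 12. The complex medians at 12 h became -1.20 and -0.26 (poly-A, hybridization) for complex I, -1.06 and -0.13 for complex III, -1.12 and -0.19 for complex IV and -1.32 and -0.38 for the ATP synthase. At 48 h they became -3.43 and -1.996, -2.70 and -1.27, -2.49 and -1.05, and -3.14 and -1.70. NDUFA2 at 48 h became -1.77 and -0.33, NDUFA1 -1.77 and -0.33, and COX8C -2.11 and -0.67.

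With arrays centred on the median gene, 8 were called higher at 2 h, the dose difference gave 6 higher at 2 h and 5 lower at 12 h, and the change with time 5 lower. Without a variance trend, 0 were higher at 2 h, also relative to genes of like level, 0 were higher and 0 lower at 48 h, and 1 was lower relative to genes of like level at 12 h. The dose difference then gave 0 higher at 2 h and 21 at 12 h, and the change with time 14 higher. With only genes above the median level, the dose difference gave 27 higher at 2 h and 4 lower at 12 h, and 13 were higher and 6 lower relative to genes of like level at 48 h.

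With the mean of a gene's probe sets, at 2 h 8 were higher with 4 lower, at 12 h 5 were lower, and at 48 h 1 was higher with 6 lower. The dose difference at 2 h then gave 7 higher with 2 lower, at 12 h 5 lower, the change with time 5 lower, and the comparison with genes of like level at 2 h 4 higher and 4 lower. The complex IV median relative to genes of like level was 0.54 at 12 h, that of the ATP synthase 0.27 at 48 h, and ATP5F1A at 12 h 0.37.

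With no replicate block, so that the lines are not paired, at 2 h 0 were higher, at 12 h 14 were higher with 0 lower, at 48 h 0 in either direction, and the dose difference gave 0 higher at 2 h and, at 12 h, 8 higher with 1 lower. In a joint fit of all arrays at 2 h 0 were higher, at 12 h 7 were lower, and at 48 h 23 were higher with 28 lower. The dose difference in that fit gave 0 higher at 2 h and 8 lower at 12 h. The joint fit also takes in lines without a high-dose array at the time compared, SU-DHL-5 at 12 h and OCI-Ly7 at 48 h. Its sets of lines thus differ from those of the paired fits.

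Leaving out each line in turn, between 10 and 20 members were called higher at 2 h, and at 12 h between 12 and 46, with 0 to 5 lower. The dose difference gave 5 to 13 higher at 2 h and, at 12 h, 10 to 44 higher with 0 to 5 lower, and the change with time 5 to 41 higher and 0 to 4 lower. Relative to genes of like level 6 to 10 were higher at 2 h, and 25 to 50 higher and 0 to 2 lower at 12 h.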
